A study of Mus musculus with 12 samples.

Results

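The coactivators PGC-1α (Ppargc1a) and PGC-1β (Ppargc1b), the nuclear receptors they drive and 3 further genes of the same circuit were described in mouse tongue after the oral carcinogen 4NQO, with or without gallic acid (GA), a plant polyphenol. The genes were taken by name, with earlier results of these data known. They were Ppargc1a, Ppargc1b, the estrogen-related receptors Esrra and Esrrg, Nrf1, Tfam, the peroxisome proliferator-activated receptors Ppara, Ppard and Pparg, and Perm1. All 10 were measured, among 16852 tested genes, and all 10 passed the filter on low values, 0.1 FPKM as the mean of the 12 libraries. FPKM values are reads divided by exon length and library total, which lets levels be set side by side between genes within a library. The length takes in all annotated exons of a gene, and whether tongue transcripts use all of them was not examined. Tests of the order of levels measure the spread between libraries and not an error of length. Ppargc1a is among the genes that the paper reports as upregulated with GA in these same libraries, so its values here are not a second sample of it. The paper used a count model (edgeR), and limma on the deposited FPKM, used here, did not call Ppargc1a.

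The libraries came from bulk tongue RNA of C57BL/6 mice, labelled as tumor and tumor-associated tissue, 6 from vehicle-treated and 6 from GA-treated animals. Mice of both groups had 4NQO in the drinking water at 100 µg/mL for 16 weeks, and none of the libraries came from a mouse without the carcinogen. The animals were bought at 5 weeks of age. From week 4 of 4NQO onward the treated group was given GA by gavage (100 mg/kg, 5 doses a week), and the vehicle group received the carrier (methyl cellulose and Tween-20) as often. The labels number the libraries but identify no mice, so p-values measure the spread between libraries. A tongue piece holds epithelium, muscle, glands, vessels, fat and immune cells, and no cell type was isolated.

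PGC-1 proteins bind no DNA themselves. They attach to receptors such as the ERRs and PPARs and switch on genes of mitochondrial respiration and fatty acid oxidation, and with NRF1 they raise Tfam, whose product packs mitochondrial DNA and starts its transcription. The circuit is best known from striated muscle, brown fat, heart and liver, where exercise, fasting and cold act through it. PPARδ is the receptor of this family best known from keratinocytes, and PPARγ from fat cells.

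Some facts of the whole set touch the results. Recovered library totals ran from 18040157 to 25192494 reads. Reads of Y-linked genes (3345 to 4535 per library) were present in 4 vehicle libraries and 1 GA library and at 0 in the other 7, so males and females were unevenly spread over the groups. The gland lipase Lipf stood at 8765 FPKM or more in 3 libraries (vehicle 3, vehicle 5 and GA 2) and at 0.508 or less in the other 9. Of these 3, vehicle 3 and GA 2 also held the fat cell hormone Adipoq, at 7.20 and 1.95 scaled FPKM, against at most 0.368 in the other 10 libraries. All 8 epithelial markers were measured in every group, at a summed 17300 to 40900 scaled FPKM with vehicle and 13900 to 26800 with GA. Skeletal muscle genes varied widely in both groups. Acta1, the actin of muscle fibers, ran from 428 to 4070 scaled FPKM with vehicle and from 702 to 3230 with GA. Ckm, the muscle creatine kinase, ran from 80.1 to 822 and from 117 to 586. The mean log2 level of these genes is called the muscle level. It was 9.10 ± 1.12 (SD, n = 6) in the vehicle group and 9.55 ± 0.795 (SD, n = 6) in the GA group, and the difference of 0.45 was within the spread (exact permutation test, two-sided, p = 0.446). Scaled FPKM are the deposited values divided by a library factor, and all levels below are on that scale.

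Perm1, which encodes a muscle protein induced by PGC-1 and the ERRs, had the highest level of the 10 genes, with a mean of 42.7 scaled FPKM over the 12 libraries. It was above Esrra in 12 of 12 libraries (exact sign-flip test of the paired log2 levels, two-sided, adjusted p = 0.0022 over the 9 neighbouring pairs). Esrra (21.5) and Ppard (20.2) came next and did not differ beyond their spread (Esrra higher in 7 of 12, exact adjusted p = 0.738). Ppard was above Tfam (6.32) in 12 of 12 libraries (exact adjusted p = 0.0022), and Tfam above Ppargc1a (4.39) in 11 of 12 (exact adjusted p = 0.0154). Ppargc1a was above Esrrg (3.35) in 9 of 12 (exact adjusted p = 0.0154). Esrrg and Nrf1 (2.65) were neighbours that did not differ beyond their spread (exact adjusted p = 0.759), although Nrf1 lay above Ppargc1b (1.91) in 10 of 12 (exact adjusted p = 0.0237). Ppargc1b, Pparg (1.77) and Ppara (1.66) closed the order and could not be told apart (exact adjusted p = 0.738 for both pairs).

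The genes differed more in how much they varied than the order shows. Esrrg spanned 8.80-fold between its lowest and highest library, Ppara 8.61-fold and Ppargc1a 8.22-fold. Pparg spanned 5.35-fold, Ppargc1b 3.59-fold, Perm1 3.36-fold, Ppard 2.25-fold and Esrra 2.08-fold. Tfam (1.56-fold) and Nrf1 (1.36-fold) were nearly level across the same 12 tongues.

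The first comparison asked whether GA moved the circuit. No member was called between GA and vehicle, and 0 of the 10 had an unadjusted p below 0.05 in limma with the group term only. Over all 16852 tested genes, 0 were called (0%) at an adjusted p below 0.1 and a log2 fold change of 0.58 or more in either direction, the limits in the study's methods. At an unadjusted p below 0.05, 0.944% of all genes were higher and 1.23% lower with GA, 367 genes in all. Of the 10 members, 7 had a higher and 3 a lower mean log2 level with GA, and their median log2 fold change was 0.09 against -0.01 over all tested genes. Each of the 10 had an adjusted p of 0.9995.

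**Figure D1:**
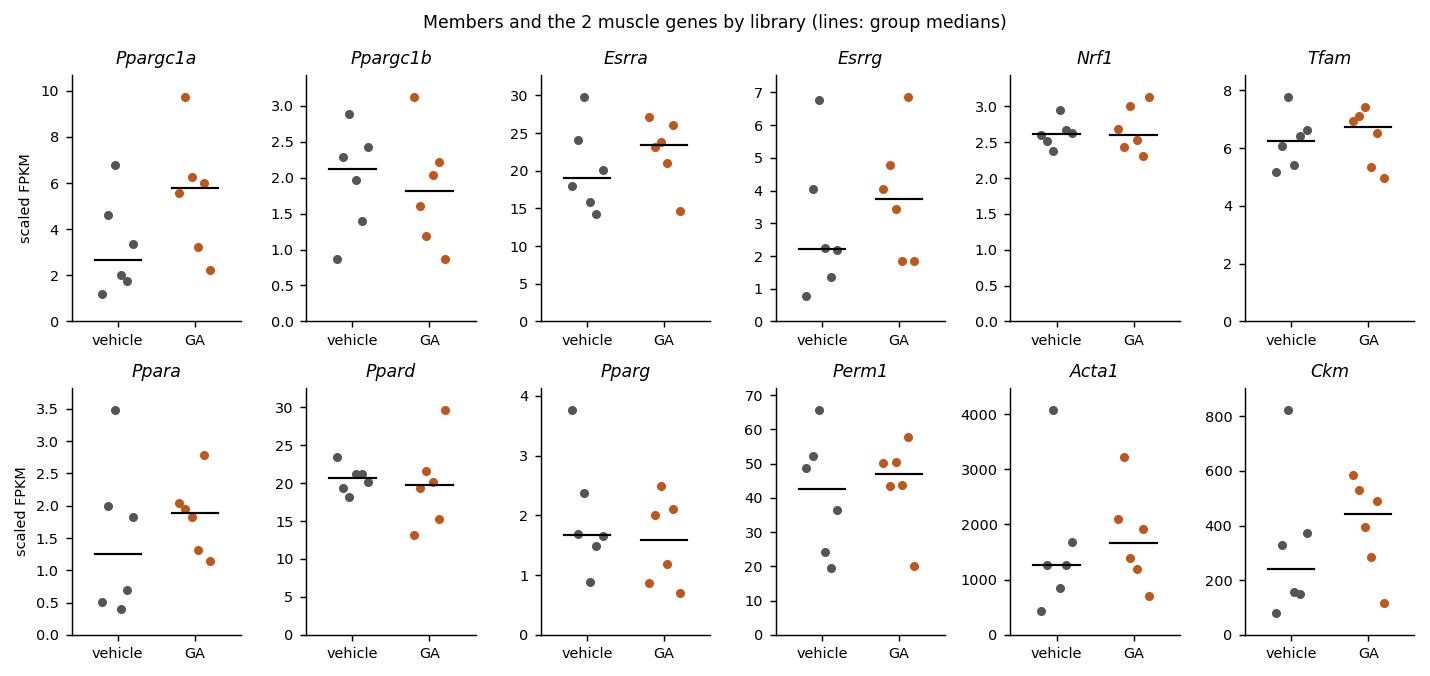
Scaled FPKM (y axes, each from 0) of the 10 members and of the muscle genes Acta1 and Ckm in each of the 6 vehicle (grey) and 6 GA (orange) libraries, with lines at the group medians. In every panel the groups overlap; for Ppargc1a 5 of 6 GA libraries lie above the vehicle median of 2.68.

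Among the coactivators, Ppargc1a (chromosome 5, 51454250 to 51567726 of GRCm38, the build called mm10) had the largest difference of the 10. Its lowest, median and highest levels were 1.18, 2.68 and 6.77 scaled FPKM with vehicle and 2.22, 5.79 and 9.73 with GA. The ranges overlapped, and 5 of 6 GA libraries lay above the vehicle median. The values rested on 142 to 1497 reads per library. The log2 fold change was 0.81 with a standard error of 0.43 (adjusted p = 0.9995 in limma), and the exact two-sided permutation test of this single gene gave p = 0.117. With the muscle level as a further term of the fit, the difference was 0.46 with a standard error of 0.18 (adjusted p = 0.9999 in limma). Ppargc1b (chromosome 18, 61298136 to 61400431) went from 0.870, 2.13 and 2.89 with vehicle to 0.873, 1.82 and 3.12 with GA, a log2 fold change of -0.11 with a standard error of 0.33. Only 2 of 6 GA libraries were above its vehicle median, and its sign was positive with a term for sex (0.08).

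The ERRs are orphan receptors that bind DNA without a known hormone and carry much of the PGC-1 signal to mitochondrial genes. Esrra (chromosome 19, 6910977 to 6921813) had 14.3, 19.0 and 29.8 scaled FPKM with vehicle and 14.7, 23.5 and 27.1 with GA. Its log2 fold change was 0.17 with a standard error of 0.19, 0.34 with the sex term and 0.04 with the muscle term. Its exons overlap those of Trmt112 on the other strand and of Mir6990 over 3.74% of their length, and the counting strand is not given in the sources used here. Esrrg (chromosome 1, 187608791 to 188214885), the family member with a narrow tissue range, had 0.780, 2.20 and 6.78 with vehicle and 1.85, 3.74 and 6.86 with GA. The log2 fold change of Esrrg was 0.55 with a standard error of 0.47 (exact permutation p = 0.325), and it was 0.19 with the muscle term. Leaving out single libraries moved it between 0.26 (without vehicle 1) and 0.85 (without vehicle 3).

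The PPARs are receptors for fatty acids. Ppara (chromosome 15, 85734983 to 85802819), which drives fatty acid oxidation, had 0.404, 1.25 and 3.48 scaled FPKM with vehicle and 1.15, 1.89 and 2.79 with GA. The difference was a log2 fold change of 0.61 with a standard error of 0.45, and 0.27 with the muscle term. Ppara reads were few, from 35 in vehicle library 1 to 260 in vehicle library 3. Ppard (chromosome 17, 28232700 to 28301474) had 18.1, 20.7 and 23.5 with vehicle and 13.1, 19.8 and 29.6 with GA, so that the GA libraries held both its lowest and its highest value. Pparg (chromosome 6, 115360951 to 115490399) had 0.876, 1.67 and 3.76 with vehicle and 0.702, 1.59 and 2.49 with GA. Their log2 fold changes of -0.10 and -0.33 had standard errors of 0.17 and 0.36.

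The other 3 members act beside the receptors. Nrf1 (chromosome 6, 30047988 to 30153458), the nuclear respiratory factor, had 2.38, 2.61 and 2.95 scaled FPKM with vehicle and 2.31, 2.60 and 3.13 with GA. Tfam (chromosome 10, 71225464 to 71238280) had 5.19, 6.25 and 7.77 and then 4.97, 6.73 and 7.42. The log2 fold changes of Nrf1 and Tfam were 0.02 and 0.03 with standard errors of 0.11 and 0.13, the smallest differences among the 10. Perm1 (chromosome 4, 156215868 to 156221307) had 19.5, 42.6 and 65.6 with vehicle and 20.1, 47.0 and 57.8 with GA, a log2 fold change of 0.16 with a standard error of 0.32. The value for Perm1 was 0.45 with the sex term and -5.33e-05 with the muscle term.

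**Figure D2:**
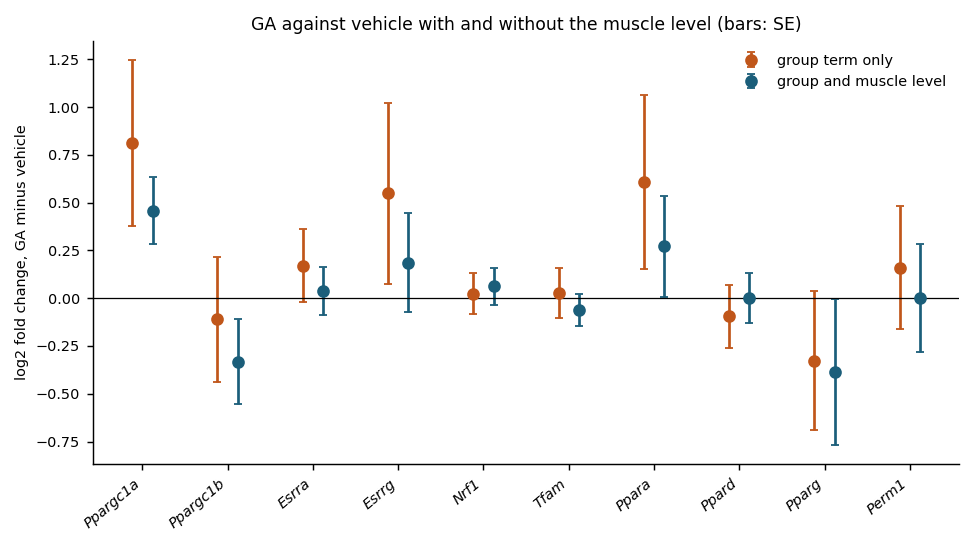
Log2 fold change of each member, GA minus vehicle (y axis), with a term for group only (orange) and with the muscle level added (blue); bars are standard errors from limma over 12 libraries. With the added term Ppargc1a moved from 0.81 to 0.46, Esrrg from 0.55 to 0.19 and Ppara from 0.61 to 0.27, and no value was called under either fit.

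The second comparison asked how far each gene followed muscle. Most of the circuit did. In a fit with a term for group, 6 members rose with the muscle level (Ppargc1a, Ppargc1b, Esrra, Esrrg, Tfam and Ppara) and Ppard fell, at an adjusted p below 0.1 in limma. Perm1, Pparg and Nrf1 did not pass the test. Over 16850 genes (Acta1 and Ckm left out), 15.0% rose with muscle and 12.9% fell. A slope of 1 means that a gene doubled where the muscle genes doubled, and the median slope was 0.33 over the 10 members against -0.03 over all tested genes. In bulk tissue, fewer cells of a type and less RNA per cell cannot be told apart.

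**Figure D3:**
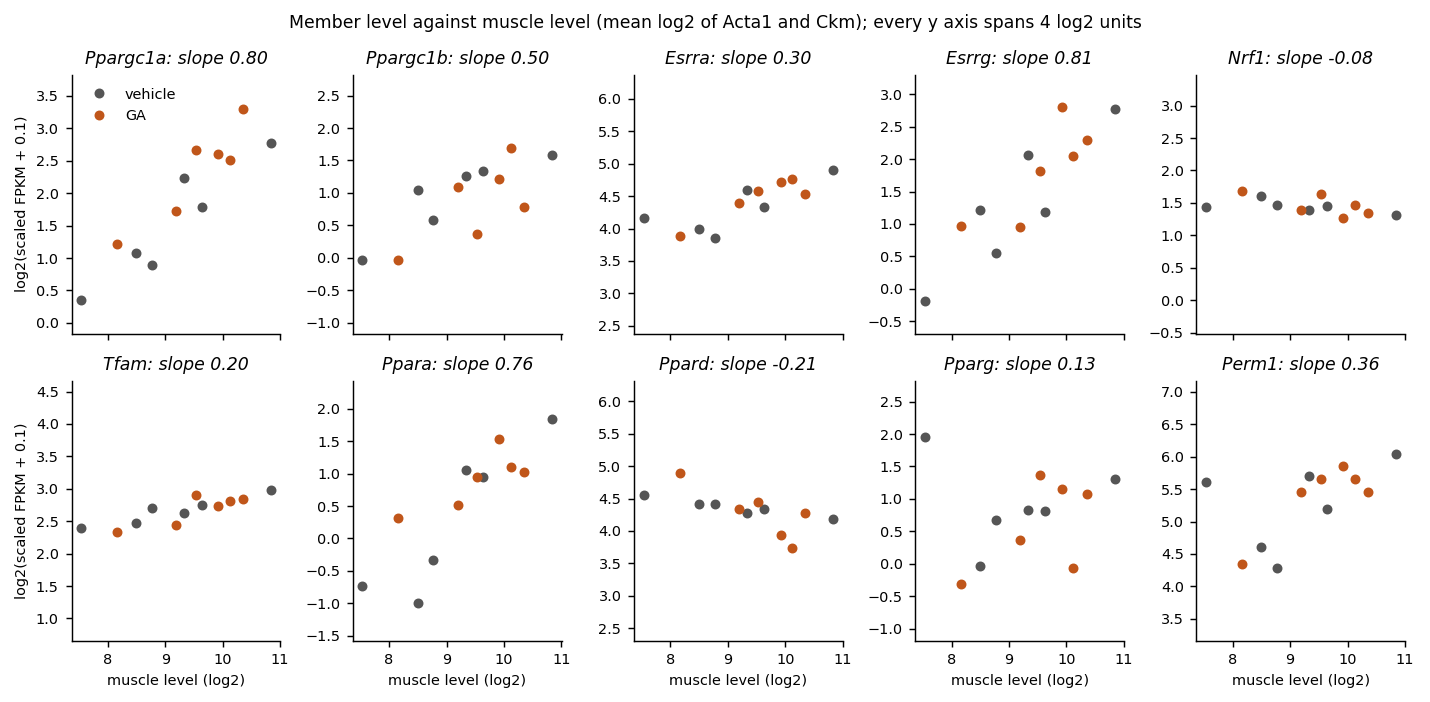
Level of each member, log2(scaled FPKM + 0.1) on the y axis, against the muscle level on the x axis (mean log2 level of Acta1 and Ckm, 7.53 to 10.8) in 6 vehicle (grey) and 6 GA (orange) libraries; each y axis spans the same range. Ppargc1a, Esrrg and Ppara climb steeply, Tfam and Esrra less so, Nrf1 is nearly flat and Ppard goes down. In the Perm1 and Pparg panels vehicle library 1, at the far left, lies high.

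Ppargc1a had a slope of 0.80 with a standard error of 0.10 (adjusted p = 0.000172 in limma). In the library with the lowest muscle level, vehicle 1 (7.53), it stood at 1.18 scaled FPKM. In vehicle 3, the library with the highest (10.8), it stood at 6.77, and in GA 2 (10.4) at 9.73. Its correlation with the muscle level over the 12 libraries was r = 0.914 (permutation p = 7e-05) and rho = 0.902 (permutation p = 0.00015), with adjusted p of 0.0021 and 0.0045 over the 30 relations computed between members and marker levels. Without the 2 libraries farthest from the median muscle level (vehicle 1 and vehicle 3) r was 0.892. It was 0.943 within the vehicle group and 0.928 within the GA group (exact permutation p = 0.00972 and 0.00833). Ppargc1b followed with a slope of 0.50 (standard error 0.12, adjusted p = 0.0145 in limma), r = 0.744 and rho = 0.706. Without vehicle 1 and vehicle 3 its r was 0.558 (permutation p = 0.0953), so that relation rested in part on those libraries.

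Among the receptors, Esrrg had a slope of 0.81 with a standard error of 0.14 (adjusted p = 0.00219), with r = 0.877 and rho = 0.811. It stood at 0.780 scaled FPKM in vehicle 1 and 6.78 in vehicle 3. Esrra, which was present at 14.3 scaled FPKM or more in every library, had a slope of 0.30 (standard error 0.07, adjusted p = 0.0111), r = 0.824 and rho = 0.804. Ppara had a slope of 0.76 (standard error 0.14, adjusted p = 0.00341), r = 0.864 and rho = 0.874. Tfam had a shallow but tight slope of 0.20 (standard error 0.05, adjusted p = 0.0110), r = 0.864 and rho = 0.881. Without vehicle 1 and vehicle 3, r was 0.748 for Esrrg, 0.865 for Esrra, 0.769 for Ppara and 0.803 for Tfam.

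Ppard ran the other way, with a slope of -0.21 (standard error 0.07, adjusted p = 0.0596 in limma). Its highest level, 29.6 scaled FPKM, was in GA 6, whose muscle level of 8.16 was the lowest of its group, and its lowest, 13.1, was in GA 1 (10.1). The correlation of Ppard with the muscle level was r = -0.695 and rho = -0.811 (adjusted permutation p = 0.0321 and 0.00973 over the 30 relations), and -0.758 without vehicle 1 and vehicle 3. It was -0.964 within the vehicle group and -0.812 within the GA group (exact permutation p = 0.0111 and 0.05). Without GA 6 the slope was -0.14 and no longer passed (adjusted p = 0.216 in limma). Ppard also had the smallest unadjusted p of the 10 for a difference of slopes, GA minus vehicle (-0.31, standard error 0.13, unadjusted p = 0.0370), but with an adjusted p of 0.625 it was not called. No gene was called for a difference of slopes between the groups (0%, with 1334 at an unadjusted p below 0.05).

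Perm1 and Pparg did not pass, and vehicle 1 stood out in both. Perm1 had a slope of 0.36 (standard error 0.16, adjusted p = 0.127 in limma). In vehicle 1, where Acta1 and Ckm were lowest, Perm1 stood at 48.8 scaled FPKM from 3452 reads, above 6 of the other 11 libraries. Without vehicle 1 its slope was 0.63 (adjusted p = 0.00738) and its r with the muscle level was 0.840, against 0.579 over all 12 libraries (rho = 0.559, adjusted permutation p = 0.0987 and 0.135 over the 30 relations). With all 12 libraries the slope of Perm1 passed when muscle was read from Ckm alone (0.39, adjusted p = 0.0678 in limma) or without the group term (0.36, adjusted p = 0.0962). In each of these fits 7 members rose, where 14.1% and 15.6% of all genes did. Pparg was highest in that same library, at 3.76 scaled FPKM from 201 reads, against 2.49 in the next. Its slope of 0.13 (standard error 0.21, adjusted p = 0.704) became 0.48 without vehicle 1 (adjusted p = 0.0808). Thus 8 members rose with muscle without vehicle 1, where 13.4% of all genes rose and 13.6% fell. In the fit with all 12 libraries and the group term 6 rose, where 15.0% of all genes rose and 12.9% fell. Nrf1 had a slope of -0.08 (standard error 0.05, adjusted p = 0.289) and kept to 2.31 to 3.13 scaled FPKM throughout.

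**Figure D4:**
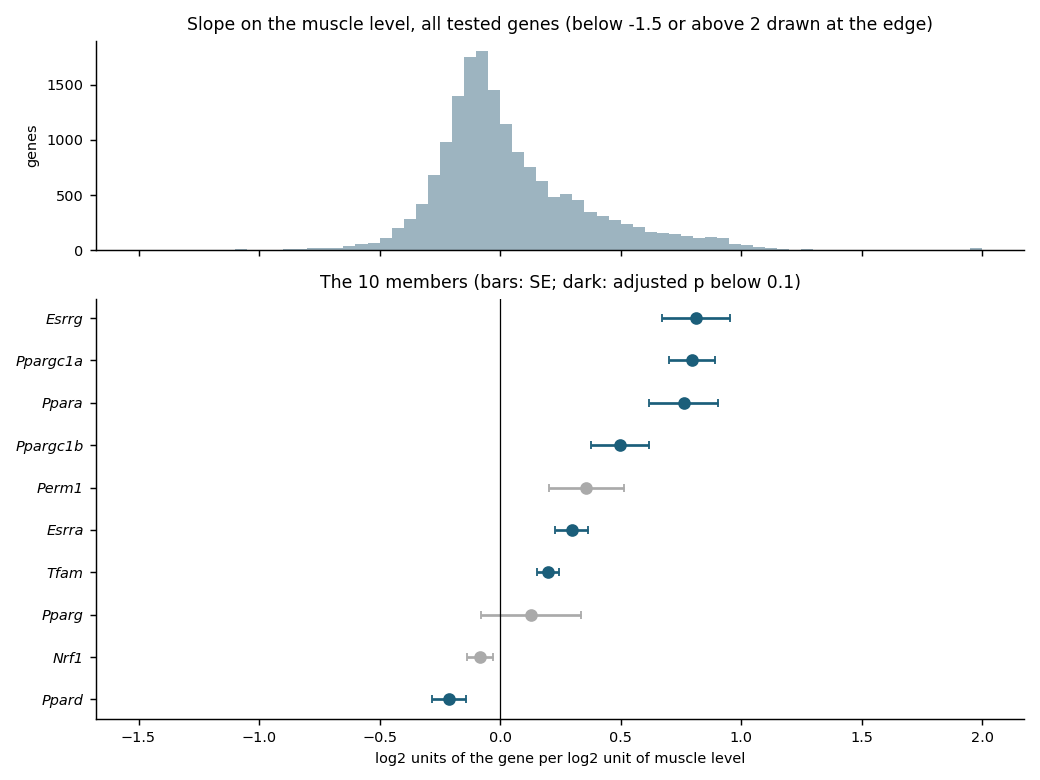
Top, histogram of the slope on the muscle level over 16850 genes. Bottom, slopes of the 10 members with standard errors, dark where the adjusted p was below 0.1. Esrrg, Ppargc1a and Ppara lie at 0.76 to 0.81, in the right tail of the histogram, and Ppard at -0.21.

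Muscle-rich libraries had a lower RNA level of epithelial markers taken as a set. Of the 8 markers, 4 fell with muscle at an adjusted p below 0.1 in limma (Krt6a, Trp63, Dsg3 and Pkp1), where 12.9% of all genes fell. Krt5, Krt14, Krt4 and Krt13 did not pass. The epithelial level (mean log2 level of the 8 markers) fell as the muscle level rose, with r = -0.816 and rho = -0.825 (permutation p = 0.00138 and 0.00178, adjusted p = 0.00276 and 0.00356 over 4 relations between marker levels). It was -0.757 without vehicle 1 and vehicle 3, -0.711 within the vehicle group and -0.973 within the GA group (exact permutation p = 0.101 and 0.00139). Ppargc1a ran against epithelium with r = -0.833 and rho = -0.832 (adjusted p = 0.00655 and 0.00973 over the 30 relations), and Ppard with it, with r = 0.694 and rho = 0.755 (0.0321 and 0.0166). Without GA 2 and vehicle 1, the libraries farthest in epithelial level, r was -0.714 for Ppargc1a and 0.787 for Ppard. With the epithelial level as a further term, 3.53% of all genes rose with muscle and 0.421% fell. Under that fit 2 members passed, Ppargc1a (slope 0.70, adjusted p = 0.0546 in limma) and Ppara (1.05, adjusted p = 0.0356), and the slope of Ppard was -0.11 (adjusted p = 0.794). The slopes that no longer passed were close to those without the term for Ppargc1b (0.51) and Tfam (0.20) and somewhat lower for Esrra (0.26) and Esrrg (0.69), with standard errors of 0.21, 0.08, 0.12 and 0.25. Without the 3 libraries high in Lipf, 5 members rose and 1 fell, where 9.44% of all genes rose and 3.27% fell. When the 5 libraries with Y-linked reads were left out, 2.44% of all genes rose and 0.416% fell. Ppargc1a was then the member that rose (slope 0.96, adjusted p = 0.0465 in limma), while Esrrg (0.78), Ppara (0.58), Ppargc1b (0.46), Esrra (0.37), Tfam (0.23) and Ppard (-0.31) kept the sign of their slopes and did not pass.

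Pparg, the receptor best known from fat cells, was set against adipocyte markers. Of 7 adipocyte markers, 6 were tested, and their summed level ran from 0.204 to 53.4 scaled FPKM with vehicle and from 0.195 to 21.8 with GA. The correlation of Pparg with the adipocyte level was r = 0.299 and rho = 0.175 (permutation p = 0.344 and 0.589, adjusted p = 0.413 and 0.673), and r was 0.01 without vehicle 3 and GA 2. Vehicle 1, the highest library for Pparg, had an adipocyte level of -2.56 on the log2 scale against 1.29 in vehicle 3. Pparg stood at 2.38 in vehicle 3 and 2.0 in GA 2, the libraries with Adipoq. The brown fat marker Ucp1 was too low to be tested, and Cidea, which brown fat cells express, was at 12.2 with vehicle and 11.8 with GA.

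The members were also set against Ppargc1a itself, in 9 relations over the 12 libraries. Esrrg followed it most closely, with r = 0.909 and rho = 0.860 (adjusted permutation p = 0.0009 and 0.0045 over the 9). Ppara (r = 0.867, rho = 0.846), Esrra (0.830, 0.790) and Tfam (0.780, 0.825) had adjusted p for r of 0.00121, 0.00366 and 0.00783. Without the 2 libraries farthest in Ppargc1a, vehicle 1 and GA 2, r was 0.887 for Esrrg, 0.894 for Ppara, 0.967 for Esrra and 0.724 for Tfam. For Perm1 the relation was r = 0.620 and rho = 0.615 (adjusted p = 0.0615 and 0.0561), and 0.952 without those 2 libraries. Ppargc1b, its closest relative in sequence, had r = 0.532 and rho = 0.455 (adjusted p = 0.0987 and 0.173). The r of Ppargc1b was 0.911 within the vehicle group and 0.377 within the GA group (exact permutation p = 0.00694 and 0.458), a difference that was not tested. Ppard had r = -0.576 and rho = -0.615 (adjusted p = 0.0708 and 0.0561), Nrf1 -0.429 and -0.441, and Pparg 0.137 and 0.322. These relations share the muscle level described above.

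The genes whose pattern over the 12 libraries was most like each member were found by Pearson r on log2 levels, over the genes outside the 10 whose mean reached 1 FPKM. For Esrra they were all enzymes of mitochondrial fatty acid oxidation: Acaa2 (r = 0.987), Hadhb (0.986) and Acadm (0.985). For Perm1 the first was Acsl1 (0.959), which activates long-chain fatty acids, followed by D5Ertd579e (0.958) and Etfrf1 (0.957). For Ppargc1a they were 1110002E22Rik (0.970), Hddc3 (0.965) and Slco5a1 (0.954), and Slco5a1 (0.951) was also the first for Esrrg, before Chrac1 and Ptges2 (both 0.945). For Ppargc1b they were Msra (0.916), which repairs oxidized methionine, Ucp3 (0.915), a mitochondrial carrier of muscle, and Nr3c2 (0.915), the mineralocorticoid receptor. Ppara was near to Asb15 (0.957) and Ctdnep1 (0.951), and Tfam to Cbfa2t3 (0.933) and Magix (0.926). Ppard was nearest to Cstb (0.962), the protease inhibitor cystatin B, Pak6 (0.954) and Dusp7 (0.944). Nrf1 was nearest to the nuclear exporter Xpo1 (0.920), Gm8894 (0.905) and Ifi202b (0.889), and Pparg to Gga1 (0.883), Ankrd9 (0.879) and Otulin (0.876). These values are a description over 12 libraries that share the muscle and epithelium shifts, and carry no test.

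Short promoter windows of the members were read for motifs as a description. Whether a motif bears on the muscle slopes was not tested. RefSeq windows of 300 bases (250 before and 50 after a start, build GRCm38.p6) were found for 9 of the 10 genes, 15 windows in all. The letters searched, on both strands, were TCAAGGTCA (the ERR element), AAGGTCA (the extended half-site within it), AGGTCA (the nuclear receptor half-site within both), AGGTCANAGGTCA (a direct repeat bound by PPARs), GCATGCGC (the NRF1 core), TGACGTCA (the cAMP response element) and the TGACG within it (its core), CAGCTG (an E-box) and the MEF2 consensus. Over all 32851 promoters they were present in 0.423%, 4.72%, 16.3%, 0.0396%, 2.71%, 1.79%, 20.8%, 16.3% and 3.19%. The ERR element, the direct repeat and the full cAMP response element had no match in the members' windows. The extended half-site was found in Perm1, the NRF1 core in Esrra and Ppara (where it reads on both strands in overlap), the MEF2 consensus in 1 of the 4 windows of Esrrg and 1 of the 2 of Nrf1, and the plain half-site in 2 windows of Pparg and, inside its extended half-site, in Perm1. The TGACG core was found in Ppargc1a, Ppara and Ppard, and the E-box in Esrra and Ppard. A match is a run of letters and not a site shown to be bound. Stretches that hold a match in 5 of the members are shown 5′ to 3′ on the gene's strand, with the matched letters in capitals, and bases that the annotation puts in an exon were left off. They are Perm1 (chr4:156215678-156215777, plus strand, extended half-site on the opposite strand), Esrra (chr19:6921814-6921908, minus strand, NRF1 core), Ppara (chr15:85735714-85735775, plus strand, NRF1 core), Esrrg (chr1:187608906-187609005, plus strand, MEF2 consensus) and Ppargc1a (chr5:51567727-51567825, minus strand, TGACG core on the opposite strand).
Perm1: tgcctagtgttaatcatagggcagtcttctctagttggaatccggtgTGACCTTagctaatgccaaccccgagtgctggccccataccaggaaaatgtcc
Esrra: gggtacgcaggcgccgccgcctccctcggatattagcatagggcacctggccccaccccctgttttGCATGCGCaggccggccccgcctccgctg
Ppara: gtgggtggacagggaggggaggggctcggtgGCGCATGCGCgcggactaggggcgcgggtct
Esrrg: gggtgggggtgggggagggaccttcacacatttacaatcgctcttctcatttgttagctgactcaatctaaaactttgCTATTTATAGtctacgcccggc
Ppargc1a: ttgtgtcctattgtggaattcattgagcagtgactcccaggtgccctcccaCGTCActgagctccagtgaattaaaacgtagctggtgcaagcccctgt

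The genes that act with, on or below the members were taken from lists. No listed gene was called between GA and vehicle. All 19 genes of the respiratory chain and citrate cycle known as ERR and PGC-1 targets rose with muscle (median slope 0.46), against 15.0% of all genes. The steepest were the muscle forms of cytochrome oxidase, Cox6a2 (1.05) and Cox7a1 (0.98), and the shallowest Cox5b and Uqcrc1 (both 0.34), which most tissues express. With GA, all 19 had a higher mean log2 level (median 0.27), and 0 of 19 had an unadjusted p below 0.05. The muscle level itself was 0.45 higher with GA, and its part in these values was not tested. The values ran from 0.18 for Uqcrc1 and Cs to 0.65 for Cox6a2 and 0.66 for Cox7a1.

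Of 21 genes of fatty acid oxidation and handling known as PPAR targets, 13 rose with muscle and 0 fell (median slope 0.40). Over all genes, 15.0% rose and 12.9% fell. Fabp3, the fatty acid binding protein of muscle, had a slope of 1.11 and the fatty acid transporter Cd36 one of 1.08, while Cpt1a (-0.14, adjusted p = 0.339 in limma), the carnitine transferase of liver and many other tissues, and Ucp2 (-0.04, adjusted p = 0.839) did not pass. Between the groups 13 were higher and 8 lower with GA, from -1.13 for Angptl4 and -0.41 for Ehhadh to 0.39 for Fabp3 and 0.56 for Cd36. Of 7 tested fat storage genes known as PPARγ targets, 4 rose with muscle, against 15.0% of all genes. Among them were lipoprotein lipase Lpl (1.05) and the glucose transporter Slc2a4 (0.87), which muscle fibers also express. Dgat1, which makes triglyceride, had a slope of -0.02 and was lower with GA by a log2 fold change of -0.45 (standard error 0.19, unadjusted p = 0.0338, adjusted p = 0.9995 in limma). Pck1 was too low to be tested.

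Of 11 genes of mitochondrial DNA replication and transcription, which work beside Tfam, 5 rose with muscle and 0 fell (median slope 0.11). Over all genes, 15.0% rose and 12.9% fell. Mterf2 (0.71), a termination factor, was the steepest and Mgme1 (0.34), a nuclease, came next, while Polg, the mitochondrial polymerase, had a slope of -0.04. In this list 9 genes had a higher mean log2 level with GA, led by Tfb1m (0.39) and Mgme1 (0.37), and 1 had an unadjusted p below 0.05. Of 6 muscle genes known to follow PGC-1α, 4 rose with muscle, against 15.0% of all genes. The steepest was Fndc5 (1.17), the precursor of irisin. Vegfa (0.10) and Kyat1 (-0.10) did not pass.

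Of 18 receptor partners, coactivators and corepressors, 3 rose with muscle and 2 fell, close to the background shares (median slope -0.07). Those that rose were Esrrb (0.87), the third ERR, the retinoid receptor Rxrg (0.85) and Lpin1 (0.82), a lipid phosphatase that also serves PGC-1α. Of these, Esrrb averaged below 1 FPKM. Those that fell were Pprc1 (-0.15), the third member of the PGC-1 family, and the acetyltransferase Crebbp (-0.20). Nrip1, a corepressor that opposes PGC-1α, was lower with GA by a log2 fold change of -0.42 (standard error 0.17, unadjusted p = 0.0306, adjusted p = 0.9995 in limma). Of 21 upstream regulators of Ppargc1a, 7 rose, against 15.0% of all genes, and 3 fell, about the 12.9% of all genes that did. Mef2c (0.77), a muscle transcription factor, and Prkaa2 (0.71), the AMPK catalytic subunit that muscle prefers, were steepest. The 3 that fell were Kat2a (-0.22), an acetyltransferase that silences PGC-1α, Creb1 (-0.18) and Mapk14 (-0.18). Sirt3 had a slope of 0.53 and a log2 fold change with GA of 0.46 (standard error 0.30).

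**Figure D5:**
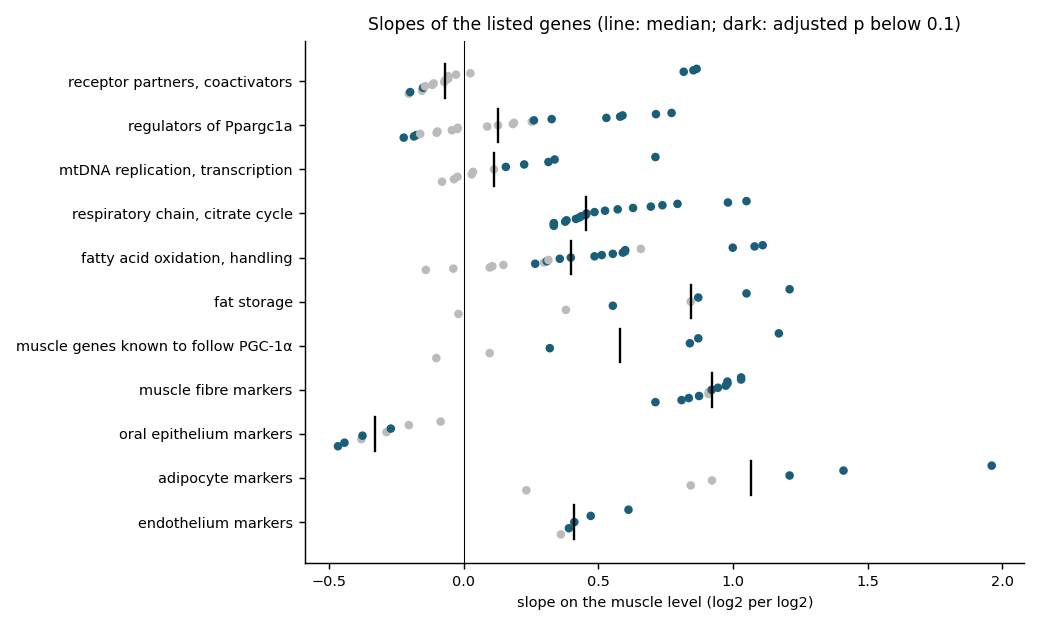
Slope on the muscle level (x axis) of each tested gene in 7 pathway lists and 4 marker lists, dark where the adjusted p was below 0.1, with a line at each list's median. The respiratory chain genes lie wholly to the right of 0 (median 0.46), muscle fiber markers near 1 (0.92), receptor partners around 0 (-0.07) and epithelial markers to the left (-0.33).

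Markers of some other cell types also moved with the muscle level. Of 13 tested muscle fiber markers outside Acta1 and Ckm, 11 rose with the muscle level (median slope 0.92), Myh2 (0.91, adjusted p = 0.181 in limma) and Actn3 (0.91, adjusted p = 0.157) did not pass, and the slow fiber myosin Myh7 was too low to be tested. Of 5 endothelial markers 4 rose (median slope 0.41), of 6 tested adipocyte markers 3 rose (1.07), and of 8 epithelial markers 4 fell (-0.33). The adipocyte level was highest in vehicle 3 (1.29 on the log2 scale) and GA 2 (0.09). Its relation to the muscle level was r = 0.585 and rho = 0.469 (adjusted permutation p = 0.0637 and 0.172 over the 4 relations between marker levels). Without vehicle 1 and vehicle 3, r was 0.424 (permutation p = 0.231). Of 6 macrophage markers 2 rose, and of 6 fibroblast markers 1, of 5 gland markers 1 and of 6 neutrophil markers 0, where 15.0% of all genes rose and 12.9% fell. The part of vessels and fat in the members' slopes was not tested.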

How the data were processed

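Tongue RNA from 6 vehicle-treated and 6 GA-treated mice was sequenced in bulk (SMARTer libraries). The authors used HISAT2 and the build mm10, took gene counts of uniquely mapped reads from featureCounts and deposited FPKM, 1 file per library. The study's methods name a count model, and limma took its place here because the deposited unit is FPKM. Of 55463 rows per file, 41.4% carried no gene name and were left out. One read was worth a fixed FPKM per gene length, so totals were recovered with GENCODE M21 exon lengths, reduced by 17.0 to 24.2 bases, and 97.8% to 98.3% of low values of a library came out whole within 0.02 reads. Reads of Esrra were not whole and are approximate. Rank correlations between libraries of a group were 0.889 to 0.971.

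A trimmed mean of log ratios gave each library's factor, and the scaled values were tested as log2(FPKM + 0.1), which understates changes of low genes, with limma 3.58.1 in R 4.3.3 (eBayes with trend, Benjamini-Hochberg over the 16852 genes averaging 0.1 FPKM or more). A gene was called between groups at an adjusted p below 0.1 with a log2 fold change of 0.58 or more in either direction, and for the muscle slope at an adjusted p below 0.1. Permutation tests used all 924 assignments for a group difference (smallest possible two-sided p 0.00216), 100000 permutations for correlations over 12 libraries, all 720 within a group and all 4096 sign flips for paired levels (Python 3.11.15, numpy 2.4.6, scipy 1.17.1). The 10 members, the lists and the tests were chosen with earlier results of these data known. List genes were named by a fixed rule: the 2 largest and 2 smallest muscle slopes and GA differences where the mean reached 1 FPKM. Esrrb and Pprc1 were named after their values were seen. For each member, the 3 genes nearest in pattern were named, except 2 genes that are not reported here. Of the listed genes, Muc19 was not analysed here. Alternatives were other pseudocounts, filters and scalings, limma without trend, limma-voom on recovered reads, a replicate block, terms for sex, muscle and epithelium, other muscle genes and leaving out each library. The fits without high-Lipf libraries and on libraries without Y-linked reads were added after the data were seen. No columns of the authors' comparisons were used.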

Additional observations from a re-analysis of the deposited data

Results flagged for a closer look

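Acta1 in vehicle library 3 (4070 scaled FPKM, next 1690) lay far above the other 5 vehicle libraries (its gap to the next was 0.653 of the group's range, past the 95% limit of Dixon's test for 6 values). It was the only one of 24 sets of values (10 members, Acta1 and Ckm in each group) past that limit, and chance alone passes about 1 in 20. Ckm was also highest there (822). Dixon's test was run on scaled FPKM, whereas the fits used log2 levels. On the log2 scale Acta1 stood at 11.99 in vehicle library 3, next 10.72 and lowest 8.74 among the vehicle libraries. Without vehicle library 3, 6 members still rose with muscle and 1 fell, where 9.34% of all genes rose and 4.9% fell. The r of Ppargc1a with the muscle level stayed between 0.874 and 0.930 whichever library was left out.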

How the results depend on the processing

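The GA comparison gave 0 called genes in all settings but 2. Without vehicle library 4 it gave 1 gene (range 0 to 1 over single libraries left out). An unadjusted p below 0.1 in limma, with the same limit of 0.58 on the log2 fold change, gave 335 of 16852 genes. Of these, 144 were higher and 191 lower with GA, and 1 was a member, Ppargc1a. The slope fit called 4695 genes, 1214 with the replicate block, 666 with the epithelium term, 2120 without high-Lipf libraries, 480 in libraries without Y-linked reads (7 libraries), and 2398 to 5007 with single libraries left out, lowest without vehicle library 3. Members rising were 6 (15.0% of all genes rose), and 2 with the block (Ppargc1a and Ppargc1b, 5.64% of all genes). They were 2 with the epithelium term (3.53%), 1 in libraries without Y-linked reads (2.44%) and 5 without high-Lipf libraries (9.44%). With muscle read from Ckm alone they were 7 (14.1%), and 7 without the group term (15.6%). With single libraries left out they were 6 to 8 (9.34% to 16.7%). Members falling were 1 (12.9% of all genes fell), and 0 with the wider muscle list (13.1%), the epithelium term (0.421%) or libraries without Y-linked reads (0.416%). With single libraries left out they were 0 to 1 (4.9% to 13.6%). Same-numbered libraries did not deviate together (correlations -0.372 to 0.0796). These correlations cannot settle whether the numbers pair the mice, since the muscle and epithelium content of each piece also enters them.

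Signs turned where values were near 0. Log2 fold changes turned for Ppargc1b with the sex term (0.0832) and over left-out libraries (-0.311 to 0.0677), for Tfam with the muscle term (-0.0602), in libraries without Y-linked reads (-0.0694) and over left-out libraries (-0.0219 to 0.0961), for Perm1 with the muscle term (-5.33e-05) and over left-out libraries (-0.0298 to 0.372), for Ppard in libraries without Y-linked reads (0.000304) and over left-out libraries (-0.220 to 0.0132), and for Nrf1 over left-out libraries (-0.0213 to 0.0634). The slope of Pparg turned with the block (-0.135), without high-Lipf libraries (-0.0106) and over left-out libraries (-0.0429 to 0.483), as did its r with muscle (-0.105 to 0.653). The cause was not tested. Over left-out libraries the log2 fold changes that kept their sign ran from 0.58 to 1.06 for Ppargc1a, 0.258 to 0.852 for Esrrg, 0.353 to 0.918 for Ppara, 0.0784 to 0.289 for Esrra and -0.520 to -0.123 for Pparg. The fewest reads per library were those of Ppara (35 to 260), Pparg (54 to 201) and Ppargc1b (63 to 270).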
